A study of Rattus norvegicus with 36 samples.

Results

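Messenger RNA of 4 genes of glycogen breakdown was followed in rat extraocular muscle (EOM) and leg muscle over the first 45 days after birth: Pygm, Phka1, Phkg1 and Pgm1. They are 4 of 4737 genes named by a probe set with a single symbol. Members were all probe sets of the Affymetrix RG-U34A array that the platform annotation gives to 1 of these symbols alone, which found 9 of 8799 probe sets: 2 for Pygm, 1 for Phka1, 3 for Phkg1 and 3 for Pgm1. All 9 were among the 6672 probe sets bright enough to be tested, but Phkg1 M98826mRNA_at entered through leg alone, so counts below are also given over the 8 that were bright in both muscles. Total RNA of EOM, the muscles that move the eye, and of leg muscle, labelled gastrocnemius/soleus, was hybridised at postnatal days 0, 7, 14, 21, 28 and 45, with 3 arrays in each of the 12 groups. The labels give no strain, sex, treatment or genotype, and do not say whether arrays of a group came from separate animals or pools, so p-values measure the spread between these arrays alone. A leg sample joins a mostly fast and a mostly slow limb muscle, which limits it as a picture of either.

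Muscle stores glucose as glycogen and breaks it down when it contracts. Glycogen phosphorylase, of which Pygm encodes the muscle form, cuts glucose units off the polymer as glucose 1-phosphate. Phosphorylase kinase turns the phosphorylase on in response to calcium and to adrenaline signals: Phkg1 encodes its catalytic gamma subunit in muscle, Phka1 the regulatory alpha subunit of the muscle form, and calmodulin serves as its calcium-sensing subunit. Phosphoglucomutase, encoded by Pgm1, then turns glucose 1-phosphate into glucose 6-phosphate, which enters glycolysis. Fetal muscle is known for the brain form of the phosphorylase, encoded by Pygb, which gives way to the muscle form as fibres mature. Loss of the muscle phosphorylase in people causes McArdle disease, an intolerance of exercise.

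The stretch before the start of each gene is shown because the 4 genes rose together after birth in both muscles, as described below, and because E-boxes (CANNTG), the letters bound by the myogenic regulators of the MyoD family, are a known feature of muscle promoters. The 250 bases before the start were taken from the RefSeq promoter table of build GRCr8, read 5′ to 3′ on the strand of the gene, with E-boxes in capitals. All 4 genes matched that table by symbol. The stretches lie at chr1:213119555-213119804 on the plus strand for Pygm, chrX:71778122-71778371 on the minus strand for Phka1, chr12:32474827-32475076 on the plus strand for Phkg1 and chr5:119710484-119710733 on the plus strand for Pgm1.
Pygm: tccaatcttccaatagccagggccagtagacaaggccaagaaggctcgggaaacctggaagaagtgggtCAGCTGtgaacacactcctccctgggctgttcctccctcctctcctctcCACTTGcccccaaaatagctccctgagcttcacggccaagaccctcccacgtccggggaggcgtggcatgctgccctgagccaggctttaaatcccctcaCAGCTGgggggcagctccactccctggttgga
Phka1: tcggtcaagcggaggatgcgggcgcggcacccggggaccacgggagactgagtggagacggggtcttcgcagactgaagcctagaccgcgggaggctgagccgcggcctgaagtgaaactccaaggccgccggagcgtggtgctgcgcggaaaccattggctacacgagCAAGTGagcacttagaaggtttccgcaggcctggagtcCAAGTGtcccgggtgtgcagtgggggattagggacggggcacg
Phkg1: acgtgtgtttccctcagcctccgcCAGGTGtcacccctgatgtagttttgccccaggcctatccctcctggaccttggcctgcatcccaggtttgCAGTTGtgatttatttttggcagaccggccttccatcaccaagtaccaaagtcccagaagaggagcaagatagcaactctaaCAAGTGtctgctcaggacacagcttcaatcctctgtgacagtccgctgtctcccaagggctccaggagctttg
Pgm1: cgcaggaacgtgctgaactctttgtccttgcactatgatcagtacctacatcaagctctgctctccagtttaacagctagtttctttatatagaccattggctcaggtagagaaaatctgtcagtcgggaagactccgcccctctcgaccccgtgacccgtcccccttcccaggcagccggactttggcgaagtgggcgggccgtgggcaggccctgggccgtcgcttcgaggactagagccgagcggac
An E-box reads the same in form on both strands. Pygm held 3, at 181, 132 and 32 bases before the start, Phkg1 held 3, at 226, 155 and 73, Phka1 held 2, at 81 and 43, and Pgm1 held 0. A stretch of this length holds an E-box in 65.5% of the 33469 entries of the table, so a match is common. The narrower form CAGCTG, found in 4007 of the 33469 entries, stood at the outer and the inner E-box of Pygm and in no other member. A search on both strands for the MEF2 motif, present in 2.96% of the entries, found 0 in the 4 stretches. Of 3 general promoter motifs searched on both strands, CCAAT, present in 11385 of the 33469 entries, stood in Pygm at 249 and 241, in Phka1 at 95 and in Pgm1 at 154. TATAAA, in 12.9% of the entries, stood in Pgm1 at 166, and GGGCGG, in 30.5%, in Pgm1 at 115 and 56. For Phka1 and Phkg1 the start used by the promoter table lies 344 and 151 bases from the annotated 5′ end of the gene, so these stretches may not precede the start used in muscle. A match is a description of letters and no evidence of binding.

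Depth and sample quality are read from the arrays themselves. Array medians lay between 418.7 and 652.2 intensity units, and arrays of a group correlated at 0.877 to 0.953 over the tested probe sets on the log2 scale. Before log2, every value under 100.9 (the 20th percentile) was set to 100.9, called the floor here. Markers of skeletal muscle fibres were well measured in both tissues: the summed intensity of 15 such genes lay between 105180 and 137010 in EOM against 122070 and 188180 in leg at day 0, and between 115840 and 280770 in EOM against 145640 and 193550 in leg at day 45, with 0 of 15 at the floor on all arrays of any of these groups. At day 0 the EOM arrays also carried gland epithelium RNA: all 8 genes of that list were higher in EOM, with sums of 24590 to 36067 in EOM against 2205 to 4466 in leg. At day 7, 5 of the 8 were higher in EOM, with sums of 8450.7 to 19981 in EOM against 2210.3 to 3361.3 in leg. From day 14 to day 45, 0 of 8 passed at any age, and at day 45 the sums were 2074 to 5059 in EOM against 1851 to 2737 in leg. In a tissue sample, fewer fibres and less mRNA per fibre cannot be told apart, and the part of these other cells in the results below was not tested. At day 21, EOM replicates 1 and 2 stood apart from other EOM arrays in genes low in EOM, among them Gyg1 and the member Pgm1 U20195_s_at, described below, and Ppp1r1a. This gene, which encodes an inhibitor of protein phosphatase 1, read 7211.8 and 8136.2 there and 2239 in replicate 3, while it read at most 2535.8 on the 15 EOM arrays of other ages. Their mean correlations with the leg arrays of day 21 were 0.918 and 0.915, against 0.897 for replicate 3. With their own group they were 0.934 and 0.920, against 0.924 for replicate 3. With the EOM arrays of day 28 they were 0.935 and 0.922, against 0.931. In leg at day 21, replicate 3 was the lowest array too on Pgm1 U20195_s_at (3775.2, beside 9271 and 10076.3) and on Gyg1 (8101.5, beside 15359.2 and 11997.5). On Ppp1r1a it was the highest leg array, at 17044 beside 12790.6 and 14536.9. Low values of replicate 3 were thus shared by both muscles on 2 of these genes and not on Ppp1r1a. The part of any leg tissue in EOM replicates 1 and 2 was not tested. Each EOM value of day 21 rests on these 2 arrays, so differences of that age are also given without them.

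Averaged over the 6 ages, every one of the 9 probe sets was lower in EOM than in leg. All 9, or 8 of the 8 bright in both muscles, passed at an adjusted p under 0.05 (limma, Benjamini-Hochberg over 6672 probe sets), while 12% of all tested probe sets were lower in EOM by the same rule. The mean difference ranged from -0.34 log2 for Pygm L10669_g_at to -1.57 log2 for Pgm1 U20195_s_at, around a member median of -0.96 (-0.82 over the 8), while the median over all tested probe sets was 0.04. Counted once per gene, on the brightest probe set of each, 4 of 4 genes were lower, with a median of -0.65 log2. With day 21 left out, an alternative chosen after seeing the data, 8 of the 9 passed. The exception was Pygm L10669_g_at, whose difference was then -0.29 log2 with an adjusted p of 0.131. That probe set also lost its call when any 1 of 11 single arrays was left out, with adjusted p between 0.0523 and 0.0634. These were leg day 0 replicate 1, day 28 replicate 2 and day 45 replicate 1, and EOM replicates 1 and 2 of day 0, replicate 2 of days 7, 14, 21 and 28, and replicates 1 and 2 of day 45. The call was also lost without EOM day 21 replicates 1 and 2 together (adjusted p = 0.0714), when arrays of the same age and number were paired (0.0646), with no filter (0.0526) and after quantile normalization (-0.19, adjusted p = 0.112).

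**Figure D1:**
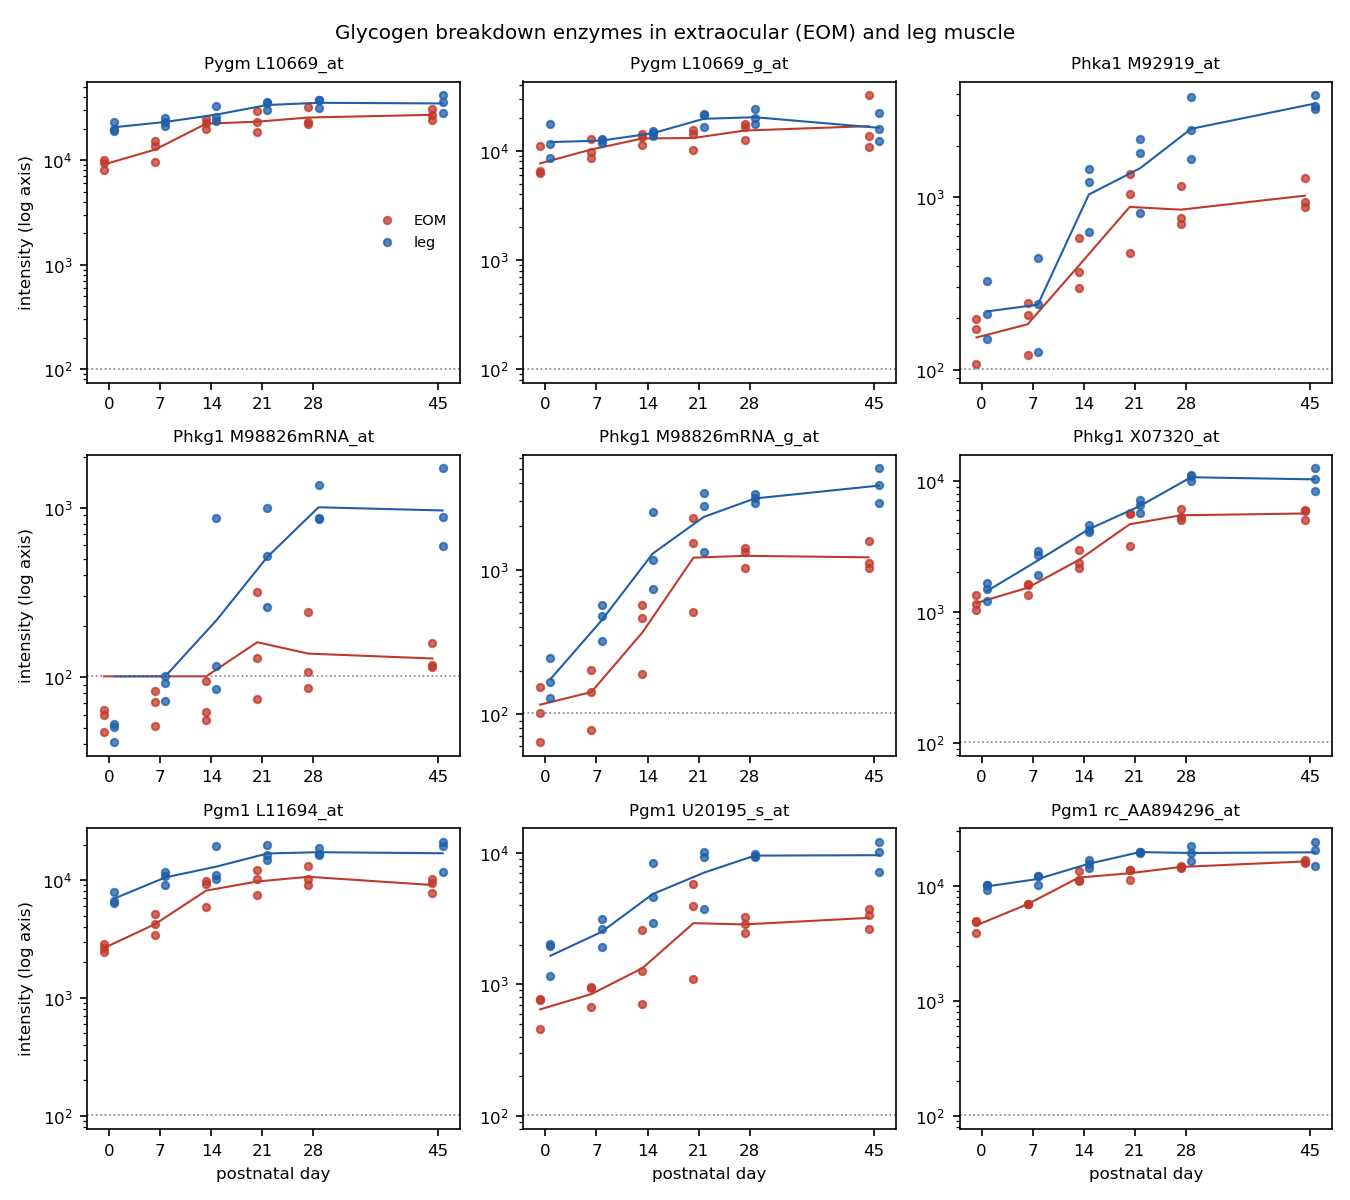
Intensity of each of the 9 probe sets (log axis) by postnatal day. Points are single arrays (EOM red, leg blue, 3 each per age), lines join the group means of the floored log2 values, and the dotted line is the floor at 100.9. Pygm and 2 of the Pgm1 probe sets start high, the kinase subunits start dim and climb, and EOM lies at or under leg through most of the course.

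Pygm, the muscle glycogen phosphorylase, was already abundant at birth, and more so in leg. On L10669_at the day 0 arrays read 9391.6, 8048.5 and 9940.3 in EOM, against 20058.9, 23129.7 and 18966.5 in leg. At day 45 they read 24041.6, 26767.5 and 30978.8 in EOM, against 41773.4, 35820.9 and 28223.1 in leg. The groups did not overlap at day 0 and overlapped at day 45. The difference between EOM and leg was -1.18 ± 0.20 log2 (SE, n = 3 arrays each) at day 0, a 2.27-fold lower level in EOM with an adjusted p of 0.000117, and -0.36 ± 0.20 at day 45 with an adjusted p of 0.290. It was -0.88 at day 7 (adjusted p = 0.00532) and between -0.29 and -0.53 at days 14, 21 and 28, where it did not pass. The day 7 call was lost without EOM day 7 replicate 3 (-0.69, adjusted p = 0.0600).

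From day 0 to day 45 the Pygm level of L10669_at rose by 1.58 ± 0.20 log2 in EOM, or 2.98-fold (adjusted p = 2.73e-07), and by 0.75 ± 0.20 log2 in leg, or 1.69-fold (adjusted p = 0.00348). Under quantile normalization the leg rise was 0.36 log2 and did not pass (adjusted p = 0.203). Group means in EOM were 9127 ± 973, 12851 ± 2894, 22403 ± 2349, 23747 ± 5553, 25898 ± 5344 and 27263 ± 3495 at days 0, 7, 14, 21, 28 and 45 (SD, n = 3 each). In leg they were 20718 ± 2159, 23250 ± 2199, 27524 ± 4781, 33761 ± 2868, 35448 ± 3521 and 35272 ± 6792 at the same ages. The single step that passed was from day 7 to day 14 in EOM (0.82 ± 0.20 log2, adjusted p = 0.00901), which was lost without EOM day 7 replicate 3 (adjusted p = 0.0828) or EOM day 14 replicate 1 (adjusted p = 0.0563). By day 14 EOM had covered 82.2% of its rise on the log2 scale, and leg 53.2%.

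This Pygm probe set was among the brightest on the array. It was among the 100 brightest of 8799 probe sets on 29 of 36 arrays, and on every leg array of days 21 to 45 it ranked between 1 and 7, at 90.0% to 100% of the intensity of the brightest probe set. In EOM at day 0 it stood at 37.2% to 42.2% of that maximum. Differences between values so close to the top of the scale can be understated, and the part of this in the later differences between the muscles was not tested. The gain in EOM exceeded the gain in leg by 0.82 ± 0.28 log2, which did not pass (adjusted p = 0.108).

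The other Pygm probe set, L10669_g_at, gave a weaker and noisier picture. It read 6587.5, 6221 and 11022.2 in EOM against 17616.2, 8555.3 and 11488.6 in leg at day 0, and the groups overlapped. At day 45 it read 10802.3, 13592.3 and 32252.4 in EOM against 22275.7, 15675.7 and 12200.9 in leg, so EOM replicate 3 alone stood far above the others. No single age passed between the muscles, with differences from -0.65 at day 0 to 0.05 at day 45. The rise of 1.13 ± 0.30 log2 in EOM passed (adjusted p = 0.00385) but not without EOM day 45 replicate 3 (0.66, adjusted p = 0.0708), and the rise of 0.43 in leg did not pass (adjusted p = 0.277). Suffixes such as _g_at and _s_at mark Affymetrix probe sets whose probes can match more than 1 transcript.

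Phka1, the regulatory alpha subunit of phosphorylase kinase, was dim at birth and rose in both muscles. On M92919_at the day 0 arrays read 171.4, 107.5 and 197 in EOM against 211.2, 150 and 325.2 in leg, with overlap. At day 45 they read 936.7, 878.5 and 1299.8 in EOM against 3386.7, 3919.2 and 3248.5 in leg, with every EOM array below every leg array. The rise to day 45 was 2.73 ± 0.45 log2 in EOM, or 6.65-fold (adjusted p = 2.08e-05), and 4.01 ± 0.45 log2 in leg, or 16.1-fold (adjusted p = 3.55e-08). Since 1 of the 6 arrays of day 0 alone lay above 320.4, the level used to filter dim probe sets, these folds rest on values near the background and can be understated.

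Phka1 did not differ past the threshold between the muscles at day 0 (-0.50 ± 0.45 log2, adjusted p = 0.707), and its day 7 difference of -0.38 turned to 0.07 without leg day 7 replicate 2. It was lower in EOM at day 28 by -1.56 ± 0.45 log2 (adjusted p = 0.0217) and at day 45 by -1.78 ± 0.45 log2, or 3.43-fold (adjusted p = 0.00963). The day 28 call was lost without leg replicate 2 (adjusted p = 0.0504) or 3 (0.128) or EOM replicate 1 (0.0768) or 2 (0.0939), and the day 45 call held when any single array was left out. At day 14 the arrays read 580.8, 299.1 and 368.7 in EOM against 1220.8, 1464.1 and 627.8 in leg, a difference of -1.38 (adjusted p = 0.0783), which passed with arrays paired by number (adjusted p = 0.00882). Leg rose by 2.13 ± 0.45 log2 between days 7 and 14 (adjusted p = 0.00428; 0.0562 without leg day 7 replicate 1), and the step of 1.13 in EOM did not pass. The difference between the muscles in the whole rise, -1.28 ± 0.64 log2, did not pass either (adjusted p = 0.374).

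Phkg1, the catalytic subunit, had 3 probe sets that agreed in direction and differed in brightness. On the brightest, X07320_at, day 0 arrays read 1140.4, 1342.6 and 1037.8 in EOM against 1655.8, 1201 and 1489 in leg, with overlap. At day 45 they read 6039.1, 5056.4 and 5879.3 in EOM against 8359.1, 12461.2 and 10412.5 in leg, without overlap. EOM rose by 2.27 ± 0.20 log2, or 4.83-fold (adjusted p = 3.11e-10), and leg by 2.84 ± 0.20 log2, or 7.16-fold (adjusted p = 2.25e-12). EOM means were 1174, 1532, 2508, 4826, 5482 and 5658 over the 6 ages, and leg means 1449, 2506, 4286, 6458, 10682 and 10411. EOM means thus lay close together from day 21. The leg mean of day 28 lay 1.66-fold above that of day 21, a step that did not pass (adjusted p = 0.142). The EOM mean of day 21 rests on replicates 1 and 2. On replicate 3 alone EOM had covered 63.7% of its log2 rise by day 21, against 87.9% on all 3.

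Between the muscles, X07320_at did not pass at day 0 (-0.30 ± 0.20 log2, adjusted p = 0.536) and was lower in EOM at days 7, 14, 28 and 45. The differences were -0.69 (adjusted p = 0.0367), -0.78 (0.0159), -0.97 (0.00121) and -0.86 (0.00414), each ± 0.20. At day 21 the difference was -0.46 (adjusted p = 0.224), and EOM replicate 3 read 3184.5 beside 5561.2 and 5733.2. Without EOM replicates 1 and 2 it was -1.01, against all 3 leg arrays, of which leg replicate 3 was the lowest too (5678.1, beside 7095.9 and 6601). The day 7 call was lost without any single array of the 6 but leg replicate 3, with adjusted p between 0.0771 and 0.226. The day 14 call was lost without leg replicate 1 or 2 or EOM replicate 1 or 3 (adjusted p 0.0554 to 0.0756). Calls at days 28 and 45 held when any single array was left out. Among steps between neighbouring ages, X07320_at passed from day 7 to 14 in EOM (0.70) and in leg (0.80) and from day 14 to 21 in EOM (0.91), each lost without 1 of several single arrays, with adjusted p up to 0.159, 0.141 and 0.221.

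M98826mRNA_g_at showed the same course from a dimmer start. It read 100.8, 153.3 and 63.7 in EOM against 129.7, 167.5 and 244.7 in leg at day 0, and 1030.6, 1114.8 and 1583.2 in EOM against 3847.5, 5051.7 and 2909.4 in leg at day 45. The rise was at least 10.5-fold in EOM, where 2 of the 3 day 0 arrays lay at the floor (adjusted p = 1.10e-06), and 22.0-fold in leg (4.46 ± 0.46 log2, adjusted p = 8.07e-09). All 6 arrays of day 0 lay under 320.4, so the leg fold too rests on values near the background and can be understated. It was lower in EOM by -1.65 ± 0.46 log2 at day 7 (adjusted p = 0.0319), by -1.82 at day 14 (0.0166) and by -1.65 at day 45 (0.0186). Each of these calls was lost without 1 of several arrays: leg replicate 1 or 2 or EOM replicate 2 or 3 at day 7 (0.102 to 0.150), leg replicate 2 or EOM replicate 3 at day 14 (0.121 to 0.172), and leg replicate 1 or 2 or EOM replicate 1 or 2 at day 45 (0.0541 to 0.0975).

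The dimmest Phkg1 probe set, M98826mRNA_at, was detected late and in leg alone past the filter level. It exceeded 320.4 on 0 of 18 EOM arrays and on 9 of 18 leg arrays, and lay at the floor on 17 of 36 arrays, among them all 6 of day 0. At day 45 it read 118.2, 158.2 and 113.8 in EOM against 880.7, 1707.5 and 594.8 in leg, without overlap. Its rise in leg was at least 9.55-fold over the floor. Because it entered the tests through leg alone, a difference between the muscles or with age was fixed by the filter, and neither a fold between the muscles nor a p-value is given for it. The other Phkg1 probe sets put the day 45 difference at -0.86 and -1.65 log2.

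**Figure D2:**
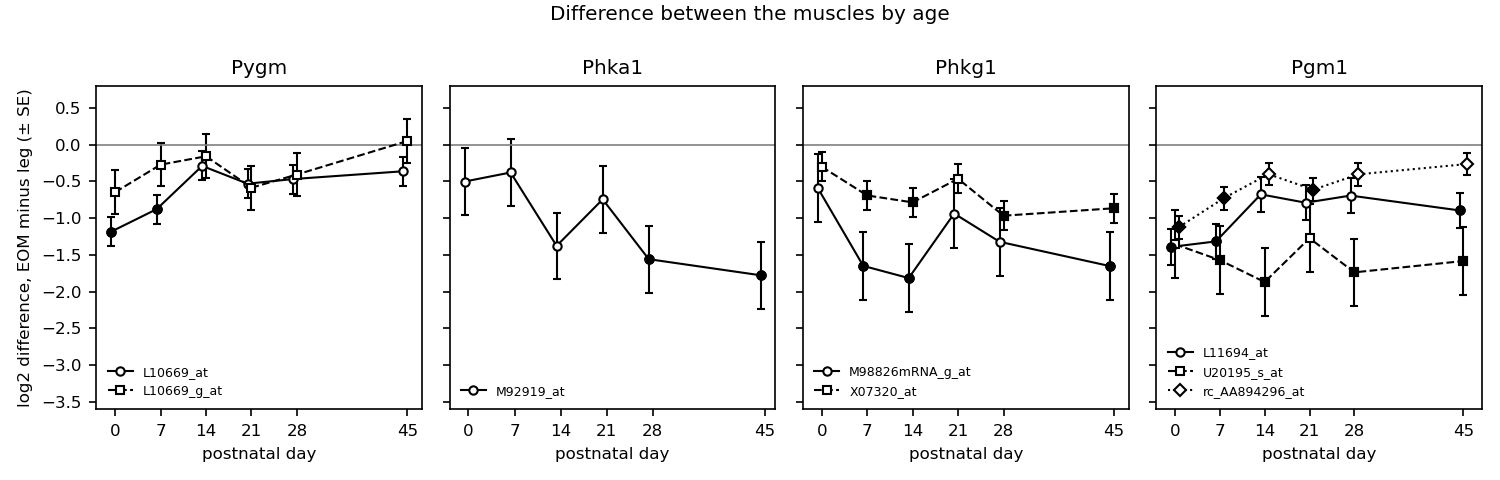
Log2 difference of EOM minus leg at each postnatal day for the 8 probe sets bright in both muscles, with its standard error (n = 3 arrays each). Filled symbols passed at an adjusted p under 0.05. The difference is -0.36 at day 45 and -1.18 at day 0 for Pygm L10669_at, and -1.78 at day 45 and -0.50 at day 0 for Phka1, while the Pgm1 probe sets run apart.

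Pgm1, which leads the freed glucose phosphate into glycolysis, was lower in EOM at birth on all 3 probe sets, and 2 of the 3 passed. On rc_AA894296_at the day 0 arrays read 3896, 4840.3 and 5010 in EOM against 10199.6, 10289.7 and 9311.7 in leg. At day 45 they read 15979.4, 16961.9 and 16209 in EOM against 24348.9, 20743.1 and 15018.7 in leg. The groups were apart at day 0 by -1.12 ± 0.15 log2, or 2.18-fold (adjusted p = 5.88e-06), and overlapped at day 45 (-0.26 ± 0.15, adjusted p = 0.336). In between it was lower in EOM by -0.73 at day 7 (adjusted p = 0.00275) and by -0.61 at day 21 (0.0183). The day 21 call was lost without leg replicate 1 (0.0635) or 2 (0.0659) or EOM replicate 3 (0.150).

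The rise of rc_AA894296_at was 1.85 ± 0.15 log2 in EOM, or 3.60-fold (adjusted p = 1.21e-10), and 0.99 ± 0.15 log2 in leg, or 1.98-fold (adjusted p = 7.93e-06). Here the difference between the rises passed: EOM gained 0.86 ± 0.22 log2 more than leg (adjusted p = 0.0198). It was lost without leg day 45 replicate 3 (0.67, adjusted p = 0.0640) or EOM day 0 replicate 1 (0.75, adjusted p = 0.0753). EOM rose in steps of 0.61 from day 0 to 7 (adjusted p = 0.0318) and 0.77 from day 7 to 14 (adjusted p = 0.00138). The earlier step was lost without any 1 of 5 of its 6 arrays (0.0606 to 0.219), and the later one held without any single array.

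The other Pgm1 probe sets still differed between the muscles at day 45. L11694_at read 2649.2, 2859.2 and 2470 in EOM against 6394.5, 6673.5 and 7915.1 in leg at day 0, and 10195.1, 9386 and 7798.8 in EOM against 19419.8, 21169.6 and 11664.1 in leg at day 45. Its difference was -1.39 ± 0.24 log2 at day 0 (adjusted p = 0.000173), -1.32 at day 7 (0.000527) and -0.89 at day 45 (0.0136). The day 45 call was lost without leg replicate 1 (0.0712) or 2 (0.0984) or EOM replicate 3 (0.0539). That call was also lost under quantile normalization and when only the groups compared were fitted. L11694_at rose by 1.77 ± 0.24 log2 in EOM, or 3.42-fold (adjusted p = 9.22e-07), and by 1.28 ± 0.24 log2 in leg, or 2.42-fold (adjusted p = 9.87e-05). The EOM step of 0.95 from day 7 to 14 passed (adjusted p = 0.0136) and was lost without EOM day 7 replicate 3 (0.0807) or EOM day 14 replicate 1 (0.0796) or 2 (0.0839). With arrays paired by number, this probe set also passed at day 14 (-0.68, adjusted p = 0.0320) and day 21 (-0.79, adjusted p = 0.0170), where the unpaired adjusted p was 0.105 and 0.0562.

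U20195_s_at read 776, 759.6 and 457.4 in EOM against 2015.9, 1149.4 and 1946.1 in leg at day 0, and 3743.5, 2620.3 and 3360.6 in EOM against 10182, 12186.5 and 7152.2 in leg at day 45. Neither age showed overlap. It was lower in EOM by -1.57 ± 0.46 log2 at day 7 (adjusted p = 0.0401), -1.87 at day 14 (0.0125), -1.74 at day 28 (0.0110) and -1.58 at day 45 (0.0232), and did not pass at day 0 (-1.35, adjusted p = 0.0812), except under both other scalings of the arrays and with replicate blocks. At day 21, where it read 3945.7, 5802 and 1091.8 in EOM, the difference was -1.27 (adjusted p = 0.124; 0.0207 with arrays paired by number). Without EOM replicates 1 and 2 it was -2.69. That value sets EOM replicate 3 against all 3 leg arrays, although leg replicate 3 was the lowest too (3775.2, beside 9271 and 10076.3). The day 28 call held without any single array. The others were lost without single arrays: at day 7 any but leg replicate 3 (0.0889 to 0.174), at day 14 leg replicate 2 (0.127) or EOM replicate 3 (0.0954), and at day 45 leg replicate 1 (0.0714) or 2 (0.106) or EOM replicate 2 (0.0924). The rise was 2.31 ± 0.46 log2 in EOM, or 4.96-fold (adjusted p = 0.000224), and 2.54 ± 0.46 in leg, or 5.82-fold (adjusted p = 6.15e-05).

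Age by age, the number of the 9 probe sets lower in EOM was 3, 6, 3, 1, 4 and 6 at days 0, 7, 14, 21, 28 and 45, and none was higher. The share of all tested probe sets called lower in EOM at these ages was 2.40%, 1.65%, 2.31%, 0.555%, 4.18% and 3.69%. Over the 8 probe sets bright in both muscles the counts were 3, 6, 3, 1, 3 and 5. At an unadjusted p under 0.05, 5, 6, 6, 6, 8 and 6 of the 9 were lower, beside 6.26%, 4.81%, 8.08%, 4.32%, 9.20% and 9.35% of all. By that rule 5, 6, 6, 5, 7 and 5 of the 8 bright in both muscles were lower. EOM day 21 replicates 1 and 2 were also left out, an alternative chosen after seeing the data. The day 21 differences of the 8 bright in both muscles then ranged from -0.46 for Pygm L10669_g_at to -2.69 for Pgm1 U20195_s_at. That fit sets 1 EOM array, assumed to vary like the other groups, against all 3 leg arrays, so no calls are counted for it. At day 0 the calls were on Pygm and Pgm1 and at day 28 on Phka1, Phkg1 and 1 Pgm1 probe set. At day 45 they were on Phka1, Phkg1 and 2 Pgm1 probe sets. With arrays of the same age and number paired, 5 members passed at day 14 and 3 at day 21, beside 3.31% and 0.884% of all probe sets lower under that pairing. The counts at days 7, 14, 21 and 45 changed by over 1.5 times without single arrays. At day 7, 3 were called without leg replicate 1 or 2 or EOM replicate 2, and 2 without EOM replicate 3. At day 14, 0 were called without leg replicate 2 or EOM replicate 3. At day 21, 0 were called without leg replicate 1 or 2 or EOM replicate 3, 2 without EOM replicate 1, and 3 without leg replicate 3 or EOM replicate 2. At day 45, 3 were called without leg replicate 1 or 2.

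Over the whole course, 8 of 9 probe sets were higher at day 45 than at day 0 in EOM, where 12.9% of all tested probe sets were, and 8 of 9 in leg, where 14.4% were. None was lower. Over the 8 bright in both muscles, 8 rose in EOM and 7 in leg. The member median was 1.85 log2 in EOM and 2.54 log2 in leg (2.06 and 1.91 over the 8), against -0.04 and 0.06 over all tested probe sets. The exceptions were Phkg1 M98826mRNA_at in EOM and Pygm L10669_g_at in leg. A test over all 6 ages called 8 of 9 in EOM, beside 31.4% of all probe sets, and 8 of 9 in leg, beside 35.9%, with the same 2 exceptions. Of the 8 bright in both muscles, that test called 8 in EOM and 7 in leg. The EOM call on Pygm L10669_g_at in that test (adjusted p = 0.0299) was lost without EOM day 0 replicate 1 (0.126) or 2 (0.143). Comparisons with day 0 in a muscle and between the muscles at day 0 share their day 0 arrays.

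**Figure D3:**
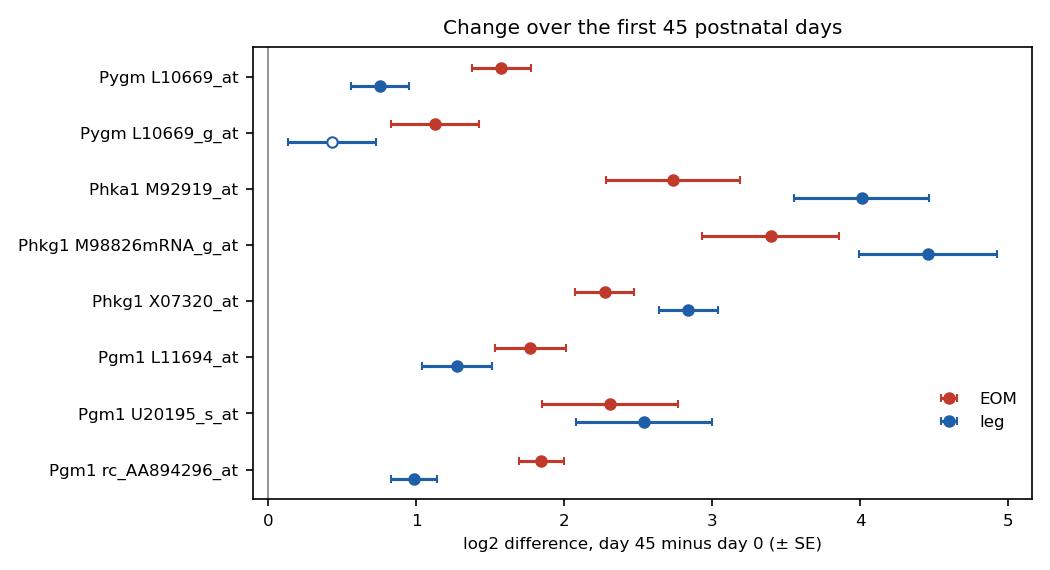
Log2 difference of day 45 minus day 0 for the 8 probe sets bright in both muscles, in EOM (red, upper) and leg (blue, lower), with standard errors (n = 3 arrays at each age). Filled points passed at an adjusted p under 0.05. Estimates for the kinase subunits are larger in leg, up to 4.46 log2, and those for Pygm and 2 Pgm1 probe sets larger in EOM. Of these 8, the contrast of the muscles passed the test on Pgm1 rc_AA894296_at alone.

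Tests of unequal change passed on few members. The day 45 minus day 0 change differed between the muscles on 2 of 9 probe sets, beside 3.70% of all tested, and on 1 of the 8 bright in both muscles, Pgm1 rc_AA894296_at, above. The other was Phkg1 M98826mRNA_at, on which all 6 day 0 arrays lay at the floor and no EOM array passed the filter level, so its call is no measure of unequal change. A test of muscle by age over all 6 ages passed on that probe set alone, 1 of 9 beside 4.05% of all, and thus on 0 of the 8, of which 2 passed at an unadjusted p under 0.05 (limma), beside 14.6% of all. The estimates for the 8 differed in sign. EOM gained more than leg on both Pygm and on 2 of 3 Pgm1 probe sets (0.50 to 0.86 log2). It gained less on Pgm1 U20195_s_at (-0.23 log2) and on the 3 kinase probe sets (-0.57 to -1.28 log2). Adjusted p on the 7 members that did not pass lay between 0.108 and 0.941.

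All 8 called steps ended by day 21, 6 of them from day 7 to day 14. The 1 from day 14 to 21 was lost without EOM day 21 replicates 1 and 2. Steps between neighbouring ages called 1 member from day 0 to 7, 4 from day 7 to 14 and 1 from day 14 to 21 in EOM, all upward, beside 1.23%, 2.40% and 0.450% of all probe sets. None was called from day 21 to 28 or from day 28 to 45 in EOM, where 0% and 0.120% of all rose and 0 of 9 members rose at an unadjusted p under 0.05, beside 2.38% and 6.09% of all. Leg called 2 from day 7 to 14, beside 1.87% of all. It called 0 in the other 4 steps, beside 0.629%, 0.180%, 0.0450% and 0.944%. At an unadjusted p under 0.05, 3, 3, 1 and 0 members rose there, beside 3.43%, 2.79%, 5.22% and 9.98% of all. Over the 8 bright in both muscles these counts were 3, 2, 1 and 0. By day 21 in EOM, Phka1, Phkg1 X07320_at and Phkg1 M98826mRNA_g_at had covered 92.1%, 87.9% and 99.8% of their log2 rise, and in leg 68.8%, 76.2% and 83.8%. The EOM shares rest on replicates 1 and 2 of day 21: with replicate 3 alone they were 59.7%, 63.7% and 63.1%. The leg shares keep all 3 arrays, and replicate 3 was the lowest there too. It read 815.6 beside 2174.4 and 1805.6 for Phka1, and 5678.1 beside 7095.9 and 6601 for X07320_at. For M98826mRNA_g_at it read 1328.8 beside 3430.5 and 2757.9. The EOM shares of replicate 3 and the leg shares are thus not matched by array. At day 7 Phka1 had covered 9.29% in EOM and 3.24% in leg, while Pygm L10669_at had covered 30% in EOM and 22.2% in leg.

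Set on the leg time course, the mean log2 level of EOM at day 45 matched leg of day 21 or younger on 8 of 9 probe sets, and Pygm L10669_g_at lay above the leg mean of day 45. It lay between leg means of days 7 and 14 for Pygm L10669_at (14.73, beside 14.50 and 14.74), Phka1 (9.998, beside 7.896 and 10.021), Phkg1 M98826mRNA_g_at (10.25, beside 8.80 and 10.34) and Pgm1 U20195_s_at (11.65, beside 11.29 and 12.25), and likewise for the near-floor Phkg1 M98826mRNA_at. It lay between days 14 and 21 for Phkg1 X07320_at and Pgm1 rc_AA894296_at, and between days 0 and 7 for Pgm1 L11694_at. No test compared muscles at different ages.

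Across the 12 group means, the members followed related courses. Pygm L10669_at and Pgm1 rc_AA894296_at correlated at 0.991 (Pearson r on log2 means), and each was the closest to the other among 3885 candidate genes, each taken by its brightest probe set. Phka1 correlated at 0.978 with Phkg1 X07320_at and at 0.976 with M98826mRNA_g_at, and at 0.858 with Pygm L10669_at. Pgm1 U20195_s_at stood between these, at 0.956 with Phkg1 M98826mRNA_g_at and 0.950 with Pgm1 L11694_at. With Pgm1 rc_AA894296_at and with Pygm L10669_at it correlated at 0.930. After Pgm1, the genes closest to Pygm L10669_at were Myl1, a fast myosin light chain (0.979), Atp5f1d, a subunit of ATP synthase (0.975), Tmsb4x (0.972) and Pgam2, the muscle phosphoglycerate mutase (0.970). Closest to Phka1 were Homer1 (0.990), Vldlr, the very low density lipoprotein receptor (0.989), Phkg1 X07320_at (0.978), Selenow (0.975) and Adk, adenosine kinase (0.973).

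Phkg1 X07320_at stood closest to Tmem276 (0.981), Phka1 (0.978), Esrra, a nuclear receptor of mitochondrial genes (0.970), Trim54 (0.970) and Selenow (0.967). Phkg1 M98826mRNA_g_at had Phka1 first (0.976), then Acsl6, Tmem276, Ndufv3 and Cryab. Pgm1 U20195_s_at stood closest to Cacna1s, the voltage sensor of the muscle T-tubule (0.983), and Gyg1, the protein primer of glycogen (0.982), before Ppt2, Slc16a3 and Tnni2. Pgm1 L11694_at had Pygm L10669_at first (0.983), then Myl1, Mapk12, Atp5f1d and Eno3, and Pgm1 rc_AA894296_at was followed by Atp5f1d, Rpl24, Rplp0 and Myl1 after Pygm. For Pygm L10669_g_at they were Pkm, Rpl24, Myl1, Atp5f1d and Pgm1 (0.973 to 0.966). The near-floor Phkg1 M98826mRNA_at had Ubxn1, Svil, Nr4a1, Grhpr and Usp19 (0.958 to 0.932). These are descriptions over 12 points that share arrays, age and muscle, and many genes that rise after birth correlate this way.

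Other genes of glycogen breakdown went different ways. Pygb, the brain form of phosphorylase, was higher in EOM than in leg, the reverse of Pygm. It read 6074.5, 5168.4 and 3567.3 in EOM against 2687.2, 2992.6 and 2238.5 in leg at day 0, without overlap, and 2778.9, 3420.9 and 1310.5 in EOM against 1851.7, 1627 and 1881.6 in leg at day 45. Over the 6 ages Pygb was higher in EOM by 0.67 ± 0.10 log2 (adjusted p = 4.23e-06), and at day 0 by 0.88 ± 0.25 (adjusted p = 0.0262; 0.0746 without leg replicate 1, 0.123 without leg replicate 3, 0.182 without EOM replicate 1 and 0.107 without EOM replicate 2). In EOM it fell by 1.06 log2 from day 0 to day 45 (adjusted p = 0.00132), and in leg the change of -0.56 did not pass (adjusted p = 0.0848). Pygb was also higher in EOM at day 7, by 0.99 log2 (adjusted p = 0.0139). Gland epithelium RNA, given above, was also higher in EOM at days 0 and 7, and its part in the Pygb values was not tested. At day 21, when the gland sums were 2937 to 6798 in EOM against 2075 to 2407 in leg, the Pygb arrays read 1642.6, 1641.6 and 1954.1 in EOM against 1034.4, 1029.4 and 1259.5 in leg, again without overlap, with an adjusted p of 0.146. Pygb arrays were also apart at day 14, at 2397.4 to 2694.5 in EOM and 1708.4 to 1800.5 in leg. Gland sums there were 2348.5 to 2625.5 in EOM and 2574.5 to 2889 in leg. At day 28 Pygb read 1993.6 to 2083.2 in EOM and 984.2 to 1673.2 in leg. Gland sums at that age were 2013.8 to 2580.9 in EOM and 1580.2 to 2604.9 in leg.

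Gaa, the lysosomal enzyme that frees glucose from glycogen, was also higher in EOM, by 0.61 ± 0.10 log2 over the 6 ages (adjusted p = 1.82e-05), and passed at no single age. It rose by 1.10 log2 in EOM and 1.04 log2 in leg. Phkg2, the catalytic subunit of the liver and testis form of phosphorylase kinase, passed in none of these comparisons. Of this list of 11 genes, 4 were on the array and 3 were tested. Over the 6 ages 2 of the 3 were higher and 0 lower in EOM, with a median of 0.61 log2 beside 0.04 over all probe sets. At day 45 0 of 3 passed.

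On the side of synthesis, Gyg1, the glycogenin on which each glycogen molecule is started, followed the members. It was lower in EOM by -0.99 ± 0.13 log2 over the 6 ages (adjusted p = 8.98e-07) and by -1.24 ± 0.33 at day 45 (adjusted p = 0.0129, and 0.0750 without EOM day 45 replicate 2). The day 45 arrays read 7957.6, 5053.2 and 6454 in EOM against 14404.8, 14950.2 and 16001.1 in leg, without overlap. Gyg1 rose by 1.45 log2 in EOM and 2.13 log2 in leg. It was the 1 gene tested of the 6 on the synthesis list, 2 of which were on the array.

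Among genes that control glycogen enzymes, Ppp1r1a stood out in size. Its product, inhibitor-1, holds back the phosphatase that turns phosphorylase off. It was lower in EOM by -1.71 ± 0.31 log2 at day 0 (adjusted p = 0.000277), by -2.42 ± 0.31 at day 45 (adjusted p = 2.58e-06) and by -2.16 ± 0.12 over the 6 ages (adjusted p = 2.39e-14). Its day 45 arrays read 2535.8, 2518.4 and 2209 in EOM against 10742.7, 14619.1 and 13900.7 in leg. Ppp1cb, a catalytic subunit of that phosphatase, was lower in EOM over the 6 ages by -0.57 log2, and Prkaa2, a catalytic subunit of the energy sensor AMPK, by -0.92. Prkar1a, a regulatory subunit of the adrenaline-driven kinase PKA, was higher by 0.63. Of 16 tested genes of the 26 on this list, 1 was higher and 4 were lower over the 6 ages, with a median of -0.15 log2.

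Calm2, 1 of the genes for calmodulin, the subunit that senses calcium in phosphorylase kinase, parted between the muscles with age. Its mean intensities in EOM were 11311, 10143, 6840, 7720, 5760 and 6134 at days 0, 7, 14, 21, 28 and 45, and in leg 7980, 9510, 11170, 10856, 11402 and 9110. Calm2 fell by 0.89 log2 from day 0 to day 45 in EOM (adjusted p = 0.00149) and did not pass in leg (0.18, adjusted p = 0.540). The changes differed by -1.07 ± 0.30 log2 (adjusted p = 0.0369), as did 3 other genes of the list: Ppp1cb at -0.97 (adjusted p = 0.0473), Prkaca at 1.37 (0.0456) and Prkar1a at 1.14 (0.00412). Over all tested probe sets, 3.70% passed that test of unequal change. Prkaca encodes a catalytic subunit of PKA.

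**Figure D4:**
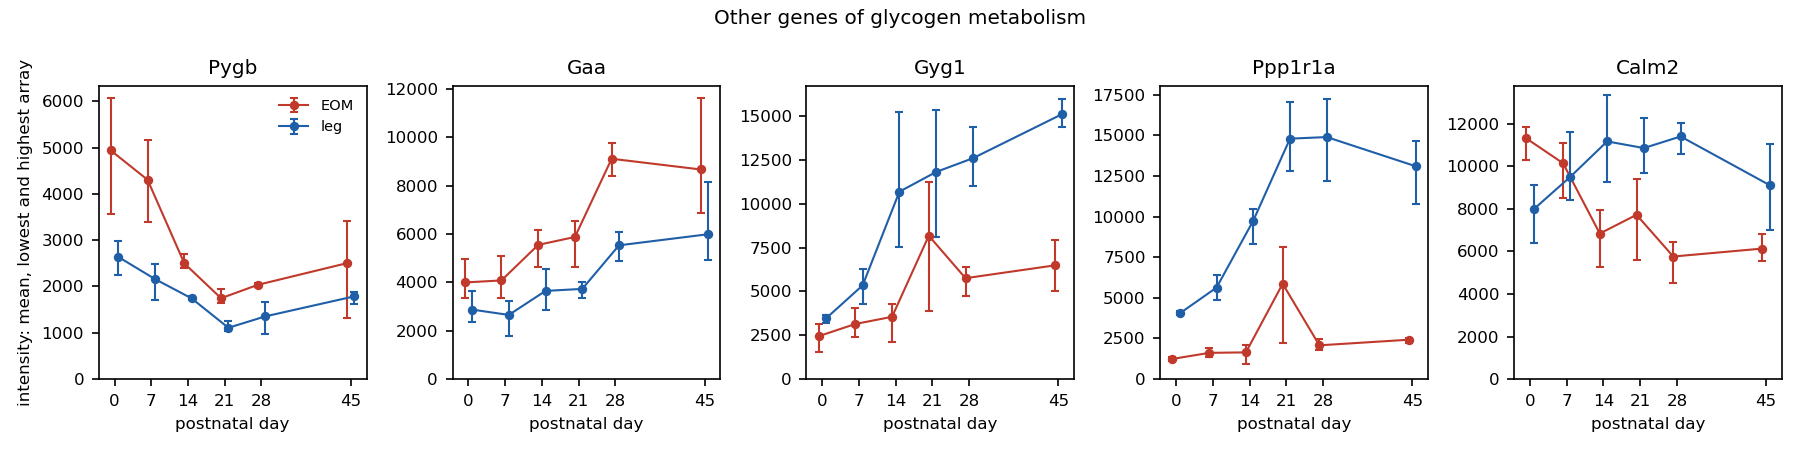
Mean intensity of 5 further genes of glycogen metabolism by postnatal day in EOM (red) and leg (blue), with bars to the lowest and highest of the 3 arrays. Pygb and Gaa run higher in EOM and Gyg1 and Ppp1r1a lower, Calm2 crosses over, and the wide EOM bars of Ppp1r1a and Gyg1 at day 21 come from replicates 1 and 2.

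The pathway that takes up the product of breakdown, glucose entry and glycolysis, was called in both directions. Of 19 tested genes of that list, 7 were higher and 7 lower in EOM over the 6 ages, with a median of 0.04 log2, while 19.8% of all probe sets were higher and 12% lower. At day 7, 1 was higher and 4 were lower, beside 3.33% and 1.65% of all. At day 45, 4 were higher and 4 lower, beside 6.89% and 3.69%. Lower there were Gpd1 (-3.34), Pfkfb1 (-2.29) and Fbp2 (-1.97), and Aldoc, the brain form of aldolase, was higher (1.82; adjusted p = 0.0184, and 0.174 without leg day 45 replicate 3 and 0.0842 without EOM day 45 replicate 1). At day 0, Fbp2 (-2.05) and Eno3 (-1.31), the muscle enolase, were lower, and Aldoc (3.03) and Slc2a1, a glucose transporter of many cell types (1.57), were higher. From day 0 to day 45, 10 genes rose and 1 fell in EOM and 9 rose and 5 fell in leg. Over all probe sets 12.9% rose and 18.4% fell in EOM, and 14.4% and 18.5% in leg. Slc2a4, the insulin-responsive glucose transporter of muscle, rose most in EOM, by 2.92 log2, and by 2.81 log2 in leg.

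Fibre markers moved in part with the members. At day 45, 0 of 11 fast fibre genes were higher and 1 was lower in EOM, and 2 of 10 slow fibre genes were higher and 4 lower. The shares of all tested probe sets were 6.89% higher and 3.69% lower at day 45, and 3.93% and 2.40% at day 0. At day 0, 0 and 4 of the fast and 0 and 3 of the slow fibre genes were higher and lower, and of 15 general fibre genes 1 was higher and 5 were lower. At day 45, of those 15, 1 was higher and 3 were lower, and the summed intensities of the muscles overlapped, as given above. They overlapped at days 14 and 21 too. At day 7 they were apart, at 114860 to 136540 in EOM against 154410 to 172010 in leg. At day 28 they were apart as well, at 138010 to 186480 in EOM against 192270 to 211270 in leg. The part of fibre content in the members' differences was not tested. From day 0 to day 45, 5 of the 15 rose and 2 fell in EOM, with a median of -0.08 log2. In leg 4 rose and 3 fell, with a median of 0.22 log2. Of all tested probe sets, 12.9% rose and 18.4% fell in EOM, and 14.4% and 18.5% in leg. The members' medians were 1.85 in EOM and 2.54 in leg, or 2.06 and 1.91 over the 8 bright in both muscles. Sums of the 11 fast fibre genes were also higher at day 45 than at day 0, without overlap. They were 120200 to 299600 against 79011 to 93718 in EOM, and 158940 to 241360 against 78543 to 142670 in leg. Sums of the 10 slow fibre genes overlapped between these ages in each muscle. The 9 Schwann cell and nerve genes had 4 higher and 1 lower in EOM at day 0 and 5 higher at day 45, with sums of 25938 to 43388 in EOM against 13688 to 17409 in leg at day 45. The part of these other cells in the members' values was not tested. Of the liver and brain list, 2 of 3 genes on the array were tested, and 0 passed in these comparisons.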

How the data were processed

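The authors deposited 1 table of linear intensity values for all arrays and probe sets. All arrays share a trimmed mean of 1499.4 to 1501.1, so the deposited intensities had been scaled to a common target, and the sources used here do not name the summarising program. That scaling stayed. Values below the 20th percentile (100.9) were raised to it before log2. Probe sets above the 40th percentile (320.4) on at least 3 of 36 arrays entered the tests, without the 59 controls. Gene symbols came from the platform annotation of 2016. The authors' table was otherwise used as it stands.

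Group means of all 12 groups were fitted with limma 3.58.1 in R 4.3.3 (trended prior variance, 24 residual degrees of freedom), with Benjamini-Hochberg adjustment over 6672 probe sets in each comparison and a threshold of 0.05. The main fits had no replicate block. Same-numbered EOM and leg arrays deviated together (every correlation over 0.1) at days 7, 14 and 21, from 0.101 to 0.369, a pairing seen in the values, since no label states one. The same code was tested on simulated data. Promoter letters and figures were handled in python 3.11.15 with matplotlib 3.10.9.

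The members and lists were chosen with earlier results of these data known. By rule, all member probe sets are described, lists by counts with up to 4 members named, and 5 genes of most similar course per member probe set. Other genes take their brightest probe set. Alternatives were the floor, log2(value + 50), the filter, scaling to the same median, quantile normalization, only the groups compared, replicate blocks and each array left out.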

Additional observations from a re-analysis of the deposited data

Results flagged for a closer look

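The change from day 0 to day 45 differed between the muscles by a test of that difference on 1 of the 8 probe sets bright in both muscles. Pgm1 rc_AA894296_at gained 0.86 ± 0.22 log2 more in EOM than in leg (adjusted p = 0.0198), with all 3 day 0 arrays of EOM below all 3 of leg and overlap at day 45. The other Pgm1 probe sets gave 0.50 and -0.23 log2 for the same difference and did not pass.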

How the results depend on the processing

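Over the alternatives, 3559 values of single probe sets kept their direction and side of the threshold, 174 lost a call, 40 gained one and 5 turned in sign. The cause of these changes was not tested, except that fits of only the groups compared use fewer arrays. Those fits called 3 members at day 7, 0 at day 14 and 0 at day 21 between the muscles, 0, 1 and 0 in the EOM steps to days 7, 14 and 21, 0 in the leg step to day 14 and 1 for the difference in change. They called 98, 73, 73, 0, 172 and 51 probe sets of the whole array lower in EOM at the 6 ages, against 160, 110, 154, 37, 279 and 246. Arrays of the same age and number were paired in a replicate block: 5 members passed at day 14 and 3 at day 21, and no call changed at day 7. A block for the replicate number alone called 4 members at day 21, 2 in the EOM step to day 21 and 1 in the leg step to day 7, and the difference in change then passed on Pygm L10669_at too (adjusted p = 0.0451). At days 0 and 28, where the numbers do not pair the arrays, the paired fit called 4 and 6 members, with Pgm1 U20195_s_at added at day 0 (adjusted p = 0.00869) and Pgm1 L11694_at (0.0170) and Phkg1 M98826mRNA_g_at (0.00604) at day 28. Without EOM day 21 replicates 1 and 2, a fit that leaves 1 EOM array at that age, the day 21 difference of Pgm1 U20195_s_at moved from -1.27 to -2.69. Without Phkg1 M98826mRNA_at, 1 member passed for the difference in change and 0 for muscle by age. At day 21, 2 members passed with the filter at the 60th percentile, 2 with arrays scaled to the same median and 0 after quantile normalization, and in the leg step to day 7 each of these called 1. The test of muscle by age called 0 with the floor at the 5th percentile, 0 with log2(value + 50) and 2 after quantile normalization.

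With single arrays left out, members called between the muscles ranged from 2 to 6 at day 7, 0 to 4 at day 14, 0 to 3 at day 21 and 3 to 6 at day 45. Steps ranged from 0 to 1, 1 to 5 and 0 to 3 in EOM to days 7, 14 and 21, and from 0 to 1, 1 to 3 and 0 to 1 in leg. The difference in change ranged from 0 to 2 and the test of muscle by age from 0 to 2. The leg step to day 7 called 1 without leg day 7 replicate 3. Pygm L10669_g_at at day 45 was -0.0099 with arrays scaled to the same median and ranged from -0.42 to 0.37 without single arrays, Phka1 at day 7 from -0.84 to 0.075, and the difference in change of Pgm1 U20195_s_at from -0.48 to 0.033.

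Scaling to the same median moved the median difference of all probe sets by -0.13 at day 0 and at day 21, and the share of called probe sets that were lower in EOM from 37.9% to 50.7% at day 0, 13.8% to 30.5% at day 21 and 37.8% to 54.7% over the 6 ages (48.1% after quantile normalization). Values near the floor bound what can be seen of Phka1 and of 2 Phkg1 probe sets before day 14, and 3 arrays a group limit the precision of every difference.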
